A study of Mus musculus with 8 samples.

Results

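Cytochrome P450 enzymes (P450s) were examined at the RNA level in the distal colon of female mice that had all received tamoxifen. The genes were chosen by their symbol alone, namely Cyp followed by a family number, subfamily letters and a member number (Cyp2c55). The rule found 94 genes in 95 of the 52143 rows of the deposited table, because Cyp2u1 had an additional row and was read from the row with the higher mean. All 94 are annotated as protein coding in GENCODE M21. The rule left out 44 other symbols that begin with Cyp, among them 30 pseudogenes, 7 Cypt genes and 5 P450 genes with a letter after the member number, and it does not reach P450s with other names such as Ptgis and Tbxas1.

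The control mice were Villin1-Cre-ERT littermates. The Siglec-XII mice were SIGLEC12-Villin1-Cre-ERT, heterozygous for human SIGLEC12 placed in ROSA26 under the CAG promoter behind a floxed EGFP with a stop codon. In both genotypes the Villin1 promoter drives Cre-ERT, a recombinase that tamoxifen activates, in the epithelium of the small and the large bowel. Mice of both groups were 8 weeks old at the first of 5 days of intraperitoneal tamoxifen (10 mg/ml), and colon was taken 7 days after the last dose, which was day 12. Neither group went without tamoxifen, so an effect of the drug on any P450 cannot be told apart from the resting level of the gene. There were 4 control and 4 Siglec-XII samples. The design text speaks of 3 mice per condition and the methods of 3 technical replicate libraries made from each sample, and where samples were not separate animals the P values measure only the spread between samples. Human SIGLEC12 has no row in the mouse table, so the genotype could not be checked from these values.

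P450s are heme enzymes that insert an oxygen atom into their substrates. Members of families 1 to 4 act mostly on drugs, plant compounds and fatty acids, while those with higher family numbers mostly make or break down sterols, bile acids, steroid hormones, vitamin D and retinoic acid. Enzymes of the endoplasmic reticulum take electrons from P450 oxidoreductase (Por) and mitochondrial ones from ferredoxin (Fdx1). In gut epithelium they meet dietary compounds and drugs before the liver does, and they turn arachidonic and linoleic acid into lipid mediators. Tamoxifen itself is oxidised in humans mainly by CYP2D6 and CYP3A4, which have several mouse relatives in the Cyp2d and Cyp3a subfamilies.

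The libraries had the markers of distal colon, and all of them also held those of stratified squamous epithelium, at widely differing levels. The colonic position genes Hoxb13, Hoxd13 and Hoxd12 summed to 458.6 to 562 TPM (transcripts per 1000000, a level corrected for transcript length) in controls and to 449.9 to 620 TPM in Siglec-XII samples, and 7 epithelial markers summed to 8884 to 12731 TPM and to 8511 to 12138 TPM. Of 5 hepatocyte markers only Ttr passed 1 TPM (57.3 to 89.2 TPM over the 8 samples), while Alb was under 1 TPM in every sample. Of the small intestinal markers Lct was at most 0.122 TPM and Sis at most 0.256 TPM, whereas Fabp6 was at 24.5 to 33.1 TPM. Stratified squamous keratins and their partners, 13 genes listed after the values were seen, summed to 18817, 2111, 2053 and 11250 TPM in controls 1 to 4 and to 2445, 5829, 1036 and 1342 TPM in Siglec-XII samples 1 to 4. All 13 had a lower mean in Siglec-XII samples (median log2 difference -1.30), 1 of them (Dsg3) with an unadjusted P of at most 0.05 in limma, a limit at which 7.67% of all tested genes were lower. The 6 smooth muscle markers also summed higher in controls (623 to 1003 TPM) than in Siglec-XII samples (303 to 651 TPM), and 3 of 6 were lower at that limit, against the same 7.67% of all tested genes. Siglec-XII samples 3 and 4 had the lowest median over all tested genes (log2 shifts of -0.16 and -0.30, against -0.05 to 0.15 in the other samples). In bulk tissue, fewer cells of a type and less RNA per cell cannot be told apart.

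Most P450 RNA of the colon came from a few members of family 2. Of the 94 genes, 31 (33%) had a control mean of at least 1 TPM, a limit that 25.9% of all rows passed. The control mean was above 10 TPM for 19 of these and above 50 TPM for 7, whereas 57 of the 94 were under 1 TPM in every sample and 17 were listed at 0 in all 8. Summed over the 94 genes, P450 RNA amounted to 1182, 1689, 1201 and 1392 TPM in controls and to 1280, 1548, 1331 and 1603 TPM in Siglec-XII samples (1366 ± 235 against 1441 ± 159, SD, n = 4 each). The groups overlapped throughout. Cyp2c55, Cyp2c68 and Cyp2d34 alone held 47.0% to 61.4% of this sum in a sample. Family 2 (19 of 49 genes expressed) carried 82.7% of it in controls, family 4 (8 of 17) 10.0% and family 3 (1 of 7) 3.79%, and outside these families only Cyp27a1, Cyp39a1 and Cyp20a1 had a control mean of at least 1 TPM.

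**Figure D1:**
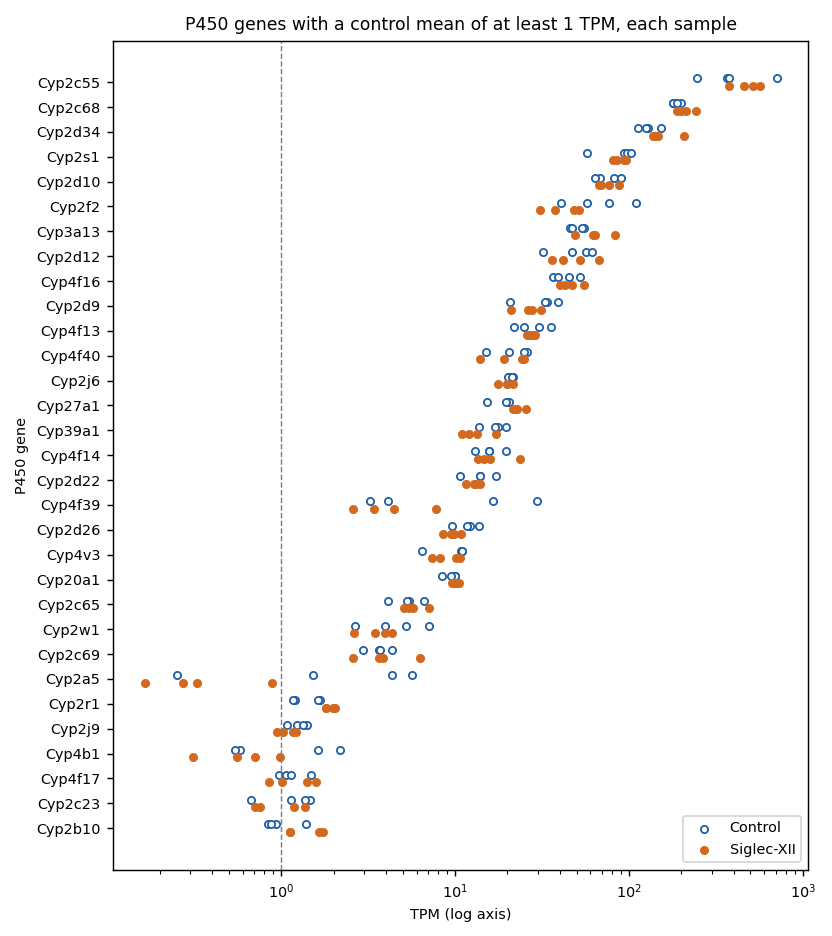
TPM on a log axis for each of the 31 P450 genes with a control mean of at least 1 TPM, ordered by that mean, with open circles for the 4 controls, filled circles for the 4 Siglec-XII samples and a dashed line at 1 TPM. The groups lie on top of each other for most genes, and the controls of Cyp4f39 and Cyp2a5 are spread most widely.

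Cyp2c was the most abundant subfamily, with 5 of its 15 genes expressed and 4 listed at 0 in all samples. Its summed level was 437, 923, 561 and 578 TPM in controls and 577, 795, 675 and 774 TPM in Siglec-XII samples, or 45.0% and 48.9% of P450 RNA. Cyp2c55, which hydroxylates arachidonic and linoleic acid and is known as a colon enzyme, was the highest P450 (426 ± 198 TPM in controls, SD, n = 4) and ranked 329 among all rows. Its controls stood at 247, 710, 369 and 378 TPM and its Siglec-XII samples at 378, 570, 460 and 516 TPM, with control 2 the highest and control 1 the lowest of all 8. Cyp2c68 followed with 180, 201, 180 and 189 TPM in controls and 189, 213, 200 and 243 TPM in Siglec-XII samples, a far tighter spread. Cyp2c65, an intestinal epoxygenase, was at 4.13 to 6.60 TPM in controls, whereas its close relative and neighbour Cyp2c66 had a control mean of 0.00676 TPM. The liver members Cyp2c29, Cyp2c37, Cyp2c50 and Cyp2c54 were listed at 0 in every sample.

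Sequence identity limits some of these values, since reads that match several transcripts are divided by estimation. Of all 31-base windows in Cyp2c68 transcripts, 62% also occur in another gene (53.6% in Cyp2c40), and the shares were 64.9% for Cyp2c69, 35.4% for Cyp2c65 (33.5% with Cyp2c66), 50.2% for Cyp2d10 and 54.6% for Cyp2a5 (44.9% with Cyp2a4). The levels of these genes are therefore uncertain. For Cyp2c55 the share was 3.41%, for Cyp3a13 0.308%, for Cyp4f39 0.421%, and for Cyp27a1, Cyp2r1 and Cyp39a1 it was 0.

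The Cyp2c genes named here lie in a cluster on chromosome 19, apart from Cyp2c23 (chr19:44005022-44029208), within which levels differed widely. Cyp2c55 lies at chr19:39007019-39042693 on the plus strand, Cyp2c65 at chr19:39061015-39093944 and Cyp2c66 at chr19:39113898-39187072 on the same strand, and Cyp2c68 at chr19:39688834-39741054 on the minus strand (GENCODE M21, GRCm38). The 130 bases before the RefSeq start of these 4 genes (GRCm38.p6) are shown, 5′ to 3′ on the gene's strand, because these genes include the highest member of the cluster and a member near 0. Capitals mark exact matches only, to TATAAA, a common form of the TATA box, or to CAAAGTCCA, a core sequence bound by the hepatic and intestinal factor HNF4A. Cyp2c65 and Cyp2c66 both hold the similar tatataag, and Cyp2c66 holds the similar caaagtccc, which stay in lower case. A gene without capitals is therefore not shown to lack either element.
Cyp2c55 (chr19:39006889-39007018, plus strand): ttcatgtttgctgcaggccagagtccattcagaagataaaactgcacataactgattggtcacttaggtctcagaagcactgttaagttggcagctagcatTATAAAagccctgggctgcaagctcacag
Cyp2c68 (chr19:39741102-39741231, minus strand): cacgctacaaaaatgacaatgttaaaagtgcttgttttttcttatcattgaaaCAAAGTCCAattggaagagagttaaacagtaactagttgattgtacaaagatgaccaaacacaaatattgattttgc
Cyp2c65 (chr19:39060876-39061005, plus strand): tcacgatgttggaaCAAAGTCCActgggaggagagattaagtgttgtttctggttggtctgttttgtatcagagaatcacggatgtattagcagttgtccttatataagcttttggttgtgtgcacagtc
Cyp2c66 (chr19:39113768-39113897, plus strand): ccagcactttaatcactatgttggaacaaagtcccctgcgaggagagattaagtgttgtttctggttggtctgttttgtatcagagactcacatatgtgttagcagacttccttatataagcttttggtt

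Counting the base before the start as position -1, TATAAA began at position -29 of Cyp2c55, and CAAAGTCCA at position -77 of Cyp2c68 and at position -116 of Cyp2c65. The upstream 250 bases of Cyp2c65 and Cyp2c66 aligned over 238 columns, of which 208 (87.4%) were identical, although their control means were 5.36 and 0.00676 TPM. Cyp2c65 aligned with Cyp2c55 over only 70 columns (46 identical, 65.7%) and with Cyp2c68 over only 32 (27 identical, 84.4%). Searched on both strands in 130-base windows, CAAAGTCCA stood before 9 of the 73 P450 genes that the RefSeq table holds and before 0.244% of all 32851 windows. The 9 were Cyp2c40, Cyp2c65, Cyp2c67, Cyp2c68, Cyp2c69 and Cyp2c70 of the Cyp2c cluster, and Cyp3a11, Cyp3a16 and Cyp8b1. Related neighbours were thus counted separately, and the share says little about P450s as a whole. TATAAA stood before 23 of 73 (6.83% of all windows) and the aryl hydrocarbon receptor core GCGTG before 11 of 73 (18.7%). Among the 25 expressed P450s of the table, 3 held CAAAGTCCA, 5 TATAAA and 6 GCGTG. These are matches of letters only, and binding was not measured.

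Cyp2d ranked next, with 6 of 8 genes expressed and summed levels of 313, 317, 254 and 370.5 TPM in controls and 299, 323.5, 292 and 418.5 TPM in Siglec-XII samples. It is the subfamily of CYP2D6, the human enzyme of tamoxifen 4-hydroxylation. Cyp2d34 led it at 129, 126, 114 and 154 TPM in controls and 137, 142, 147 and 209 TPM in Siglec-XII samples. Siglec-XII samples 1 to 3 lay within the control range and sample 4 above it. Cyp2d10 (63.6 to 90.5 TPM in controls), Cyp2d12 (32.2 to 61.1 TPM), Cyp2d9 (20.6 to 39.0 TPM), Cyp2d22 (10.7 to 17.1 TPM), often taken as the mouse counterpart of CYP2D6, and Cyp2d26 (9.64 to 13.8 TPM) followed. In the ranking of the controls, Cyp2c55, Cyp2c68, Cyp2d34 and the next gene, Cyp2s1, did not overlap each other, whereas Cyp2s1, Cyp2d10 and Cyp2f2 did.

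Among the genes that the symbol rule reached, the Cyp3a subfamily was represented by a single gene. Cyp3a13, its intestinal member, was at 54.9, 45.7, 47.1 and 53.6 TPM in controls and 49.2, 64.1, 62.5 and 83.7 TPM in Siglec-XII samples, 3 of which stood above every control. Cyp3a11, the main liver member and a target of the pregnane X receptor, and Cyp3a44 were listed at 0 in all samples, and Cyp3a25 was at most 0.0195 TPM. The remaining family 2 genes each stood nearly alone in their subfamily. Cyp2s1, an epithelial enzyme inducible through the aryl hydrocarbon receptor, was at 57.5 to 103 TPM in controls. Cyp2f2, which activates naphthalene in airway club cells, was at 110.5, 76.4, 40.9 and 57.1 TPM in controls and 48.0, 51.5, 30.8 and 37.6 TPM in Siglec-XII samples. Its 3 highest values were thus controls, and control 3 lay among the Siglec-XII samples.

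At lower levels stood the fatty acid epoxygenases Cyp2j6 (20.1 to 21.6 TPM in controls) and Cyp2j9 (1.08 to 1.40 TPM), Cyp2w1, known from fetal gut and colon tumours (2.65 to 7.07 TPM), and Cyp2c69 (2.94 to 4.34 TPM). Cyp2r1, a vitamin D 25-hydroxylase, was at 1.20, 1.67, 1.17 and 1.64 TPM in controls and at 1.81, 2.03, 1.97 and 1.81 TPM in Siglec-XII samples, all of which exceeded every control. Cyp2a5, which oxidises coumarin and nicotine, was at 5.66, 4.34, 0.250 and 1.52 TPM in controls and at 0.888, 0.164, 0.271 and 0.328 TPM in Siglec-XII samples. Its highest control was 22.6 times its lowest, the widest ratio among the 31 genes, while Cyp2j6 (1.08 times) and Cyp2c68 (1.12 times) varied least. Nearest to the limit of 1 TPM were Cyp4f17, Cyp2c23, a renal epoxygenase, and Cyp2b10, a target of the constitutive androstane receptor, with control means of 1.16, 1.16 and 1.01 TPM on the inside, and Cyp2b19 (0.699 TPM), Cyp2c67 (0.599 TPM) and Cyp2u1 (0.577 TPM) on the outside.

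Family 4, the fatty acid omega-hydroxylases, was expressed mainly through Cyp4f (6 of 9 genes, summed to 124 ± 12.02 TPM in controls and 117 ± 9.28 TPM in Siglec-XII samples, SD, n = 4 each). Cyp4f16 (36.8 to 52.4 TPM in controls), Cyp4f13 (21.9 to 35.4 TPM), Cyp4f40 (15.2 to 26.0 TPM) and Cyp4f14, which inactivates leukotriene B4 (13.1 to 19.6 TPM), made up most of it. Cyp4f39, which makes the acylceramides of the skin barrier, was less even, at 29.5, 3.24, 4.10 and 16.6 TPM in controls and 4.48, 7.79, 2.58 and 3.42 TPM in Siglec-XII samples. Controls 1 and 4 and Siglec-XII sample 2, its 3 highest samples, were also the 3 with the highest sum of squamous markers. Krt14, a basal keratin of squamous epithelium, was at 5674, 276, 250.5 and 3252 TPM in controls and 258, 1652, 120 and 157 TPM in Siglec-XII samples, and its part in the Cyp4f39 values was not tested. Outside Cyp4f, Cyp4v3 was at 6.46 to 11.0 TPM and Cyp4b1, a lung enzyme, at 0.545 to 2.17 TPM in controls.

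Of the sterol enzymes, Cyp27a1, the mitochondrial sterol 27-hydroxylase, was at 15.3, 20.2, 20.5 and 19.7 TPM in controls and at 25.6, 22.6, 22.4 and 21.6 TPM in Siglec-XII samples, with no overlap between the groups. Cyp39a1, the 7-alpha-hydroxylase of 24-hydroxycholesterol, was at 13.7, 19.8, 17.8 and 17.1 TPM in controls and at 17.3, 13.3, 12.1 and 10.9 TPM in Siglec-XII samples. Cyp20a1, an enzyme without a settled substrate, was at 8.39 to 10 TPM in controls. The other enzymes of sterol, steroid hormone, vitamin D and retinoic acid metabolism that the symbol rule reached were low. Cyp51 does not match the rule, and its level was not read. Cyp7a1, the rate-limiting enzyme of bile acid synthesis, and Cyp21a1 were listed at 0, and Cyp7b1 (control mean 0.210 TPM), Cyp11a1 (0.366 TPM), Cyp11b1 (0.00296 TPM), Cyp17a1 (0.109 TPM), Cyp19a1 (aromatase, 0.0264 TPM), Cyp46a1 (0.0627 TPM), the retinoic acid hydroxylases Cyp26a1 (0.0139 TPM) and Cyp26b1 (0.160 TPM), and the vitamin D enzymes Cyp27b1 (0.0544 TPM) and Cyp24a1 (0.00302 TPM) were all under 1 TPM.

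Family 1, the classic targets of the aryl hydrocarbon receptor, was also low, unlike Cyp2s1. Cyp1a1 was at 0.0674, 0.0806, 0.537 and 1.09 TPM in controls and 0.707, 0.694, 0.374 and 0.474 TPM in Siglec-XII samples, Cyp1b1 had a control mean of 0.172 TPM, and Cyp1a2 was listed at 0. Cyp2e1, the ethanol-inducible enzyme of the liver, had a control mean of 0.195 TPM. TPM values keep no read depth, so a listing at 0 gives no upper limit.

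**Figure D2:**
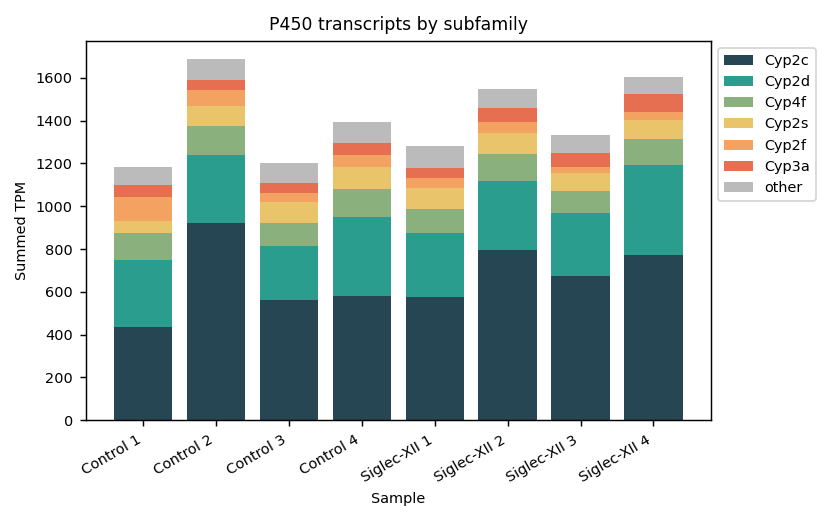
Summed TPM of the 94 P450 genes in each of the 8 samples, stacked by subfamily with bars starting at 0. Cyp2c is the largest part of every bar (437 to 923 TPM in controls), and Cyp2d the next largest (254 to 370.5 TPM).

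The comparison of Siglec-XII with control samples asked whether P450 expression differs with the transgene at baseline. No P450 gene passed the test after adjustment. Differences were on the log2(TPM + 1) scale, which understates the change of low genes, and came from limma fitted to all 13164 genes with at least 1 TPM in at least 4 of the 8 samples, with Benjamini-Hochberg adjustment. Of the 94 P450 genes, 29 passed this filter, and 2 expressed ones, Cyp2a5 and Cyp4b1, did not. None of the 29 had an adjusted p of at most 0.05 (smallest 0.515, limma), a limit that 0.038% of all tested genes met. At an unadjusted P of at most 0.05, 2 of 29 passed, against 8.87% of all tested genes. These were Cyp27a1, higher in Siglec-XII samples as were 1.19% of all tested genes, and Cyp2f2, lower as were 7.67%. None of the 29 also reached the study's fold-change limit of 2, which 0.919% of all tested genes did.

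Cyp27a1 was 0.28 higher (SE 0.12, unadjusted P 0.0482, limma adjusted p 0.515), with means of 23.0 ± 1.74 and 18.9 ± 2.43 TPM (SD, n = 4 each). All 4 Siglec-XII samples exceeded all 4 controls, but control 1 was the lowest by a wide gap, and without it the difference was 0.18 (unadjusted P 0.119, limma). With each sample centred on its median it was 0.49 (unadjusted P 0.00121, limma adjusted p 0.459), and with quantile normalization 0.45 (unadjusted P 0.00171, limma adjusted p 0.575). Cyp2r1 was the only other P450 gene whose groups did not overlap (higher by 0.27, SE 0.13, unadjusted P 0.0640, limma adjusted p 0.515), and median centring took it to 0.48 (unadjusted P 0.00879, limma adjusted p 0.459). Cyp27a1 lies at chr1:74713574-74737892 on the plus strand and Cyp2r1 at chr7:114549682-114562972 on the minus strand (GENCODE M21, GRCm38). Among all tested genes, 1.05% had every Siglec-XII sample above every control. Cyp2f2 was 0.68 lower (SE 0.29, unadjusted P 0.0423, limma adjusted p 0.515), with means of 42.0 ± 9.52 and 71.2 ± 29.9 TPM (SD, n = 4 each), and lies at chr7:27119909-27133660 on the plus strand. Without control 1, its highest sample, it was 0.44 lower and did not pass (unadjusted P 0.103, limma). Without control 4 it was 0.76 lower (unadjusted P 0.0467, limma). Without controls 1 and 4 together it was 0.43 lower and did not pass (unadjusted P 0.176, limma). With each sample centred on its median, its unadjusted P was 0.137.

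Cyp4f39 (chr17:32452723-32493320, plus strand) had the most negative difference, -0.98, and also the largest error (SE 0.62, unadjusted P 0.145, limma adjusted p 0.522). Controls 1 and 4 were its highest controls (29.5 and 16.6 TPM), so leaving them out could only raise the difference. Without them, and with Siglec-XII sample 2 kept, the sign turned (0.18, unadjusted P 0.625, limma). Squamous markers summed to 11250 TPM or more in those controls, and their part in this was not tested. Cyp2a5 was left out by the filter. With no filter its difference was -1.23 (SE 0.52, unadjusted P 0.0456, limma adjusted p 0.682), and Cyp4b1 was at -0.39 (unadjusted P 0.194). Cyp2a5 was above 4 TPM in controls 1 and 2 and below 1 TPM in control 3 and in all Siglec-XII samples.

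**Figure D3:**
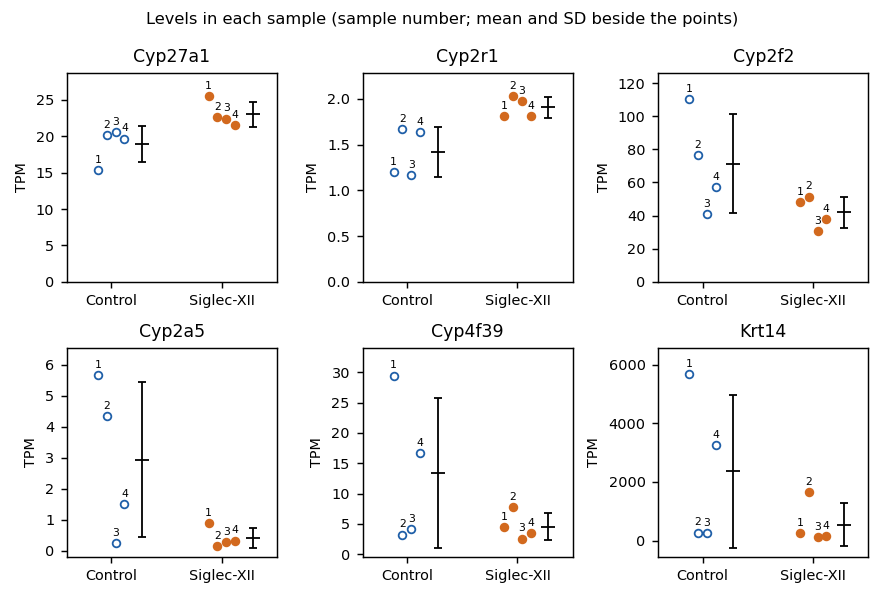
TPM in each numbered sample for 5 P450 genes and for the squamous keratin Krt14, with the mean and SD (n = 4) beside the points. The groups do not overlap for Cyp27a1 and Cyp2r1, while control 1 is the highest sample of Cyp2f2, Cyp2a5, Cyp4f39 and Krt14.

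Of the abundant genes, Cyp2f2 passed at an unadjusted P of 0.05, as given above, while Cyp2c55, Cyp2c68, Cyp2d34 and Cyp3a13 did not. Cyp2c55 had a difference of 0.27 (SE 0.28, unadjusted P 0.373, limma adjusted p 0.653), which became -0.10 without controls 1 and 4, 0.04 without control 1 and 0.55 without control 2. Cyp2c68 was at 0.17 (SE 0.096, unadjusted P 0.113), Cyp2d34 at 0.27 (SE 0.15, unadjusted P 0.111) and Cyp3a13 at 0.34 (SE 0.15, unadjusted P 0.0543). Without Siglec-XII samples 3 and 4, which had the lowest median over all genes, Cyp3a13 was at 0.16 (unadjusted P 0.278, limma). Without sample 4 alone, Cyp2d34 was at 0.13 (unadjusted P 0.274), Cyp2c68 at 0.099 (unadjusted P 0.259) and Cyp3a13 at 0.21 (unadjusted P 0.124). Other settings went the other way. Cyp3a13 was at 0.46 without Siglec-XII sample 1 (unadjusted P 0.00815, limma adjusted p 0.267). Median centring gave 0.55 for Cyp3a13 (unadjusted P 0.0442), 0.38 for Cyp2c68 (unadjusted P 0.0455) and 0.48 for Cyp2d34 (unadjusted P 0.0612), with limma adjusted p of 0.459 to 0.471. Further differences with an unadjusted P of at most 0.15 were -0.33 for Cyp39a1 (SE 0.16, unadjusted P 0.0725), -0.26 for Cyp2d26 (SE 0.14, unadjusted P 0.0920) and 0.26 for Cyp2b10 (SE 0.15, unadjusted P 0.121), all with a limma adjusted p of 0.515, as for Cyp2c68, Cyp2d34 and Cyp3a13 with all samples. The other 18 genes lay between -0.27 and 0.11, with no unadjusted P under 0.301. In all, 13 of the 29 differed by less than 0.1.

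The direction of the list depended on the scale. On the values as deposited, 15 P450 genes had a higher and 14 a lower mean in Siglec-XII samples (51.7% higher, median 0.006), whereas 21.9% of all tested genes had a higher mean and their median was -0.15. With each sample centred on its median, 23 of 29 (79.3%) were higher, against 61.5% of all tested genes, with medians of 0.22 and 0.06. Quantile normalization gave 23 of 29 against 53.7%, with medians of 0.14 and 0.017. Without Siglec-XII samples 3 and 4, which had the lowest medians, the values as deposited gave 14 of 28 higher against 51.1% of all tested genes, with medians of 0.003 and 0.004. When control 1 was also left out, the medians were -0.038 and -0.034. Leaving out Siglec-XII samples 3 and 4 thus hardly moved the P450 median (0.006 to 0.003), while the median of all tested genes went from -0.15 to 0.004. This is a description without a test, and the cause was not tested.

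**Figure D4:**
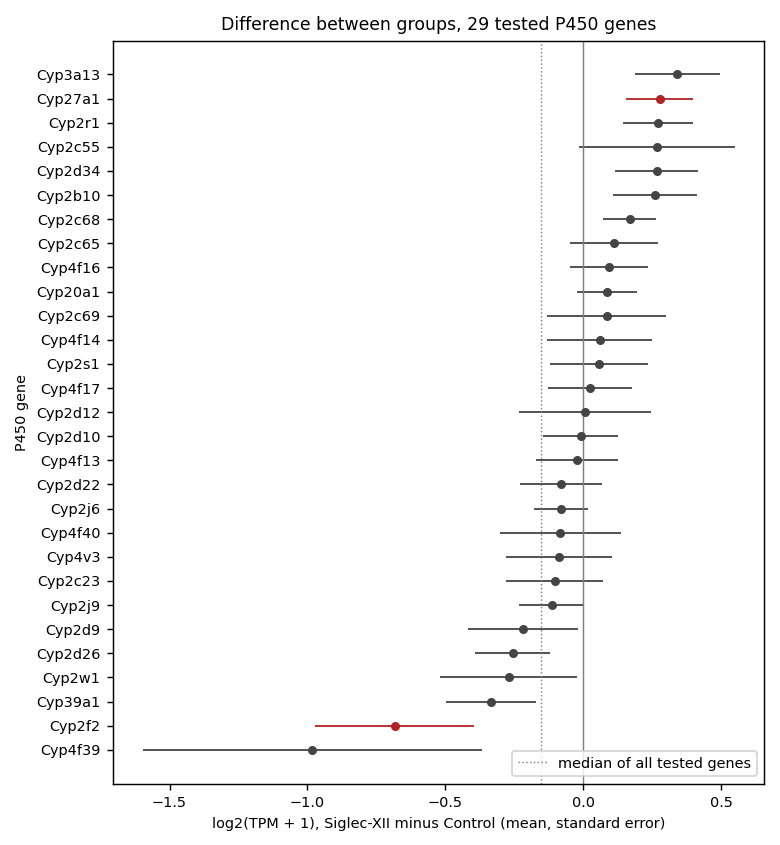
Difference in log2(TPM + 1), Siglec-XII minus control, with its limma standard error for the 29 tested P450 genes, 4 samples per group, red for an unadjusted P of at most 0.05 and a dotted line at the median of all tested genes (-0.15). Differences run from -0.98 (Cyp4f39) to 0.34 (Cyp3a13), and 2 genes are red.

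The genes that serve P450s were examined from lists, and none passed after adjustment in limma. Of 8 redox partners none passed at an unadjusted P of 0.05 (median difference -0.08). Por, the electron donor, was at 114, 107, 92.5 and 94.4 TPM in controls and 102, 105, 66.8 and 76.7 TPM in Siglec-XII samples, with the 2 lowest values in Siglec-XII samples 3 and 4. Of the 12 regulators 10 were tested, and 1, the sterol sensor Insig1, was higher (59.9, 38.8, 39.0 and 47.9 against 54.7, 74.1, 75.9 and 59.5 TPM, difference 0.51, SE 0.17, unadjusted P 0.0140, limma adjusted p 0.515), with a median of -0.27 over the list. At this limit 1.19% of all tested genes were higher. The pregnane X receptor Nr1i2 was well expressed (31.8 to 42.9 TPM in controls, difference 0.07), the constitutive androstane receptor Nr1i3 was at 2.07 to 2.78 TPM, and the aryl hydrocarbon receptor Ahr was at 3.58 to 4.43 TPM in controls and 2.02 to 4.53 TPM in Siglec-XII samples. Of 12 genes of heme synthesis and breakdown 1 was lower, Urod, the uroporphyrinogen decarboxylase (47.7, 45.7, 41.7 and 44.3 against 38.0, 37.3, 35.4 and 30.7 TPM, difference -0.34, SE 0.10, unadjusted P 0.00776, limma adjusted p 0.515), and the list's median was -0.14. This share was near the 7.67% of all tested genes that were lower at this limit, and with each sample centred on its median Urod was at -0.13 (unadjusted P 0.237, limma).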

How the data were processed

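The 8 libraries of distal colon RNA (4 per genotype) were used. The authors deposited log2(TPM + 1) per gene, made with kallisto, without adjustment between samples. The submitters' processing notes name kallisto 0.45.0 and GRCm38. The labels name a stranded total RNA kit and the methods an mRNA kit. TPM sums to 1000000 in each sample and keeps no depth, so the number of samples limits the precision.

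Values were turned back to TPM for levels. The 13164 genes that reached 1 TPM in 4 or more samples were compared using limma (version 3.58.1, under R 4.3.3) with trended moderation of the variance, two-sided, and Benjamini-Hochberg adjustment over all of them. The fit was also run on simulated data, with changes larger than any P450 difference here and without shifts of whole samples. That run therefore does not show how the fit handles differences or shifts like those of these libraries. Only the 2 groups entered, without covariates, and the labels give no batch. The authors' tests on gene counts were not used. Shared sequence was counted in 31-base windows of GENCODE M21 transcripts, and upstream sequences came from RefSeq (GRCm38.p6).

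P450 genes were named with values where expressed in controls, where unadjusted P was at most 0.05 or groups did not overlap, or from a list of known enzymes. Cyp51 of that list does not match the symbol rule and was not used. Differences were printed for an unadjusted P of at most 0.15 and for Cyp2c55, chosen after values were seen. Genes and lists were chosen with earlier results of these data known. Alternatives were filters at 5 TPM or none, a pseudocount of 0.1, quantile normalization, median and epithelial marker centring, array weights, unmoderated variance, the sample number as a block, and samples left out. Markers of colonocytes, goblet cells, adipocytes, macrophages, B cells and endothelium were also summed.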

Additional observations from a re-analysis of the deposited data

Results flagged for a closer look

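Outlying samples were sought on the log2(TPM + 1) scale in 62 groups of 4 values (31 expressed P450 genes in both genotypes). In 3 groups, a sample's gap to its nearest neighbour took more of the range than Dixon's critical value at 95% allows. Chance gives about 3.1. Levels below are in TPM, and gaps are on the log2 scale. Cyp27a1 had its lowest control in sample 1 (15.3 TPM against 19.7 to 20.5 TPM), with a gap of 0.852 of the range. Cyp4v3 had its lowest control in the same sample (6.46 TPM against 10.9 to 11.0 TPM), with a gap of 0.976. Cyp2d34 had its highest Siglec-XII value in sample 4 (209 TPM against 137 to 147 TPM), with a gap of 0.838.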

How the results depend on the processing

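No alternative gave a P450 gene an adjusted p of at most 0.05 in limma. The count at an unadjusted P of at most 0.05 was 2 as reported. It was 7 with array weights (14.1% of all tested genes), 6 with median centring (10.8%) and 4 with quantile normalization (8.45%). With no filter it was 3 of 77 (Cyp27a1, Cyp2a5 and Cyp2c40, 6.52% of all tested genes). With 1 sample left out it was 0 to 3 (3.7% to 18.1%). After seeing the data, 3 further sets were added, giving 0 genes without Siglec-XII samples 3 and 4 (2.71% of all tested genes), 1 when control 1 was also left out (5.24%), and 1 without controls 1 and 4 (4.16%). The count of P450 genes higher in Siglec-XII samples was 15 of 29 as reported (21.9% of all tested genes). It was 23 with median centring (61.5%) and 23 with quantile normalization (53.7%). With no filter it was 35 of 77 (31.5%), and with 1 sample left out 13 to 18 (17.6% to 30.5%). Single differences were followed only for P450 genes with an unadjusted P of at most 0.15 in the main fit, Cyp2c55, Insig1 and Urod. Of these 255 differences, 253 kept their sign and none passed after adjustment. Most of these genes were chosen by their P in the same data, and filters, unmoderated variance and the block leave a difference unchanged. The count of kept signs is therefore no test of stability. Cyp2c55 (-0.10) and Cyp4f39 (0.18) turned their sign without controls 1 and 4. The cause of these shifts was not tested.

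The number of expressed genes was 25 at 2 TPM, 22 at 5 TPM, 34 at 0.5 TPM, 26 where every control had to reach 1 TPM, 32 with the rows of a repeated symbol summed, and 29 to 31 with a control left out. The values showed no sign that sample numbers paired the groups, which 4 samples a group cannot exclude. The correlation of same-numbered deviations was -0.17, -0.20, 0.10 and -0.002, and 0 controls correlated best with their own number. With the sample number as a block, 2 P450 genes (Cyp2d34 and Cyp2f2) passed at an unadjusted P of at most 0.05, and 0 after adjustment. Of all tested genes, 7.18% passed at that unadjusted limit. Adjusted p over the alternatives ran from 0.277 to 0.990 for Cyp27a1 and from 0.274 to 0.990 for Cyp2f2. Depth is unknown, and 4 samples a group limit what differences could be seen.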

Other observations

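The other cell type markers gave these sums. The 5 absorptive colonocyte markers summed to 4384 to 5599 TPM in controls and 4136 to 5674 TPM in Siglec-XII samples, and the 5 goblet markers to 8343 to 10234 TPM and 9486 to 13660 TPM. The 3 endothelial markers summed to 2.07 to 3.32 TPM in controls and 1.24 to 1.52 TPM in Siglec-XII samples, and Pecam1, the only one tested, was at -0.59 (SE 0.12, unadjusted P 9.73e-04, limma adjusted p 0.515). Adipocyte markers summed to 5.03 to 30.9 TPM and 4.67 to 14.5 TPM, macrophage markers to 3.27 to 5.22 TPM and 2.50 to 2.88 TPM, and B lineage markers to 1.19 to 15.1 TPM, with the highest value in control 1, and 0.856 to 1.97 TPM.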
